A study of Mus musculus with 37 samples.

Results

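The genes described here are 10 members of the NF-kappaB system, a family of transcription factors held in check by its own inhibitors. They were chosen by gene identity, as the rows for NFKBIA, NFKBIZ, NFKBIE, TNFAIP3, REL, RELA, RELB, NFKB1, NFKB2 and BCL3, which are 10 of the 60708 gene IDs in the count table. All 10 had a count in at least 1 of the 37 libraries, and 6 of the 10 passed the filter on low counts that 5193 IDs passed.

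NF-kappaB factors are dimers of Rel-family subunits. REL, RELA and RELB carry the domains that activate transcription, whereas NFKB1 and NFKB2 encode precursors that are processed to the partner subunits p50 and p52. In resting cells the inhibitors NFKBIA (IkappaB-alpha) and NFKBIE (IkappaB-epsilon) hold dimers in the cytoplasm. Signals from Toll-like, cytokine and antigen receptors lead to degradation of these inhibitors and entry of the dimers into the nucleus. NFKBIA and TNFAIP3 (A20, a ubiquitin-editing enzyme that acts upstream) are themselves NF-kappaB targets and close negative feedback loops. NFKBIZ and BCL3 are atypical inhibitor family members that act in the nucleus. In lymphocytes REL is known for its role in proliferation after antigen receptor stimulation.

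Splenocytes from wild-type FVB mice were cultured for 48 h with RAW264.7, a mouse macrophage-like line, or with medium from it. The RAW264.7 cells had first been held for 72 h at 21% oxygen (normoxia) or 1% oxygen (hypoxia). This was done with or without recombinant SPP1 at 1 µg/mL (osteopontin, a secreted integrin and CD44 ligand). The 12 exposed groups combined these 4 conditions with 3 modes of exposure, namely the RAW264.7 culture medium ("medium"), unwashed RAW264.7 cells ("cells") and RAW264.7 cells after a media wash ("washed"). The thirteenth group was naive splenocytes, with 2 libraries, the medium normoxia no-SPP1 group also had 2 (replicates 2 and 3), and the other 11 groups had 3 each. All groups shared the wild-type FVB background, and Brefeldin A, an inhibitor of secretion, was added at the end of the culture. For the naive group, neither a culture time nor Brefeldin A is stated in the sources used here. Exposure and culture therefore cannot be told apart in comparisons against naive. The age of the mice was not used here. The authors state that the experiments were repeated independently at least 3 times. The labels do not say whether replicates came from separate mice, and p-values therefore measure the spread between these libraries.

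The cells and washed cultures held RAW264.7 cells beside splenocytes. RNA of the line and RNA of the splenocytes cannot be told apart in these libraries, and neither can fewer cells of a type and less RNA per cell. The deposited IDs are human Ensembl genes, to which the mouse reads had been aligned, so a count is a mouse read that matched the human gene. Because the reads come from 3′ ends and their match between species differs from gene to gene, no level was compared between genes. The counts per member given below describe only how well each was captured. The files pair no ID with a symbol, so marker genes of the splenocytes could not be looked up and the cell type label was not checked.

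Library totals ran from 631574 to 1337314 counts (median 1063211). On the first principal component of all tested IDs (33.2% of the variance), replicate 3 of medium normoxia no-SPP1 and replicate 1 of medium hypoxia no-SPP1 took positions of 10.7 to 11.6, whereas the other 9 medium libraries lay at 41.5 to 57.5. On the second component (12.3%), 4 co-culture libraries (cells hypoxia no-SPP1 replicate 2, replicates 1 and 2 of washed normoxia SPP1, and replicate 1 of washed hypoxia SPP1) lay at −54.4 to −31.8, below the −7.86 to 21.0 of the other 20 co-culture libraries. These 6 libraries are called the libraries apart, and results that rest on them are given with and without them.

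NFKBIA (ENSG00000100906.11) had the most counts of the 10 members, with a mean of 641 per library (158 to 1634). Means were 114 for REL (ENSG00000162924.15, 9 to 304) and 56.2 for TNFAIP3 (ENSG00000118503.15, 2 to 146). They were 45.5 for NFKB2 (ENSG00000077150.20, 2 to 102) and 30.2 for NFKBIZ (ENSG00000144802.11, 4 to 207). The remaining 5 members averaged under 10 counts and were poorly captured. NFKB1 (ENSG00000109320.13) averaged 8.38 counts (3 to 21) and still passed the filter. NFKBIE (ENSG00000146232.17) summed to 46 counts over the 37 libraries and RELB (ENSG00000104856.14) to 34, while RELA (ENSG00000173039.19) and BCL3 (ENSG00000069399.15) summed to 3 counts each. NFKBIE, RELB, RELA and BCL3 did not pass the filter, and a difference between groups in these 4 was not detectable with so few counts. How well mouse reads matched these 4 human genes was not tested. Levels are given below as CPM, counts scaled to a common library size.

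The question put to the 6 tested members was whether they differed with the mode of exposure, with the oxygen in which RAW264.7 cells had been kept and with SPP1. A test for any difference among the 13 groups called 4 of the 6, against 53.6% of all IDs tested. They were REL (adjusted p = 3.70e-10), TNFAIP3 (adjusted p = 1.87e-07), NFKBIA (adjusted p = 0.00123) and NFKBIZ (adjusted p = 0.00343). NFKB2 (adjusted p = 0.343) and NFKB1 (adjusted p = 0.296) did not pass. The values of each library are drawn in the plot of 6 members by group.

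**Figure D1:**
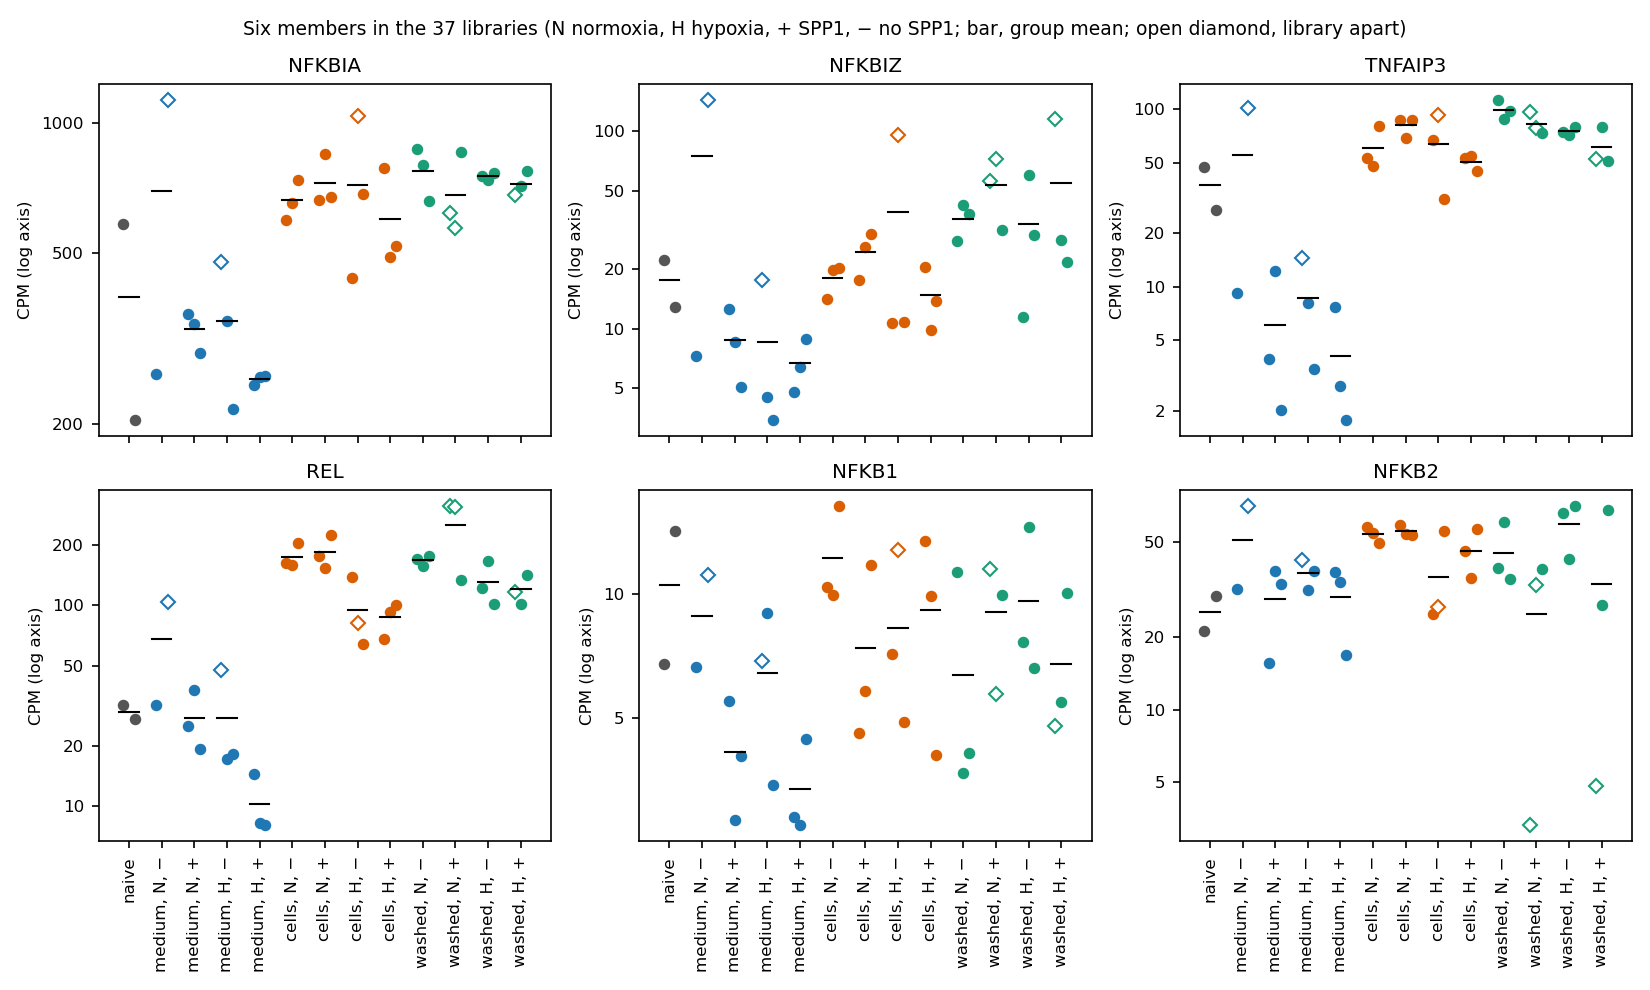
Scaled counts (CPM, log axis) of 6 members in 37 libraries, by group, with a bar at each group mean and open diamonds for the 6 libraries apart. REL and TNFAIP3 sit higher in the cells and washed groups than in most medium libraries, and medium normoxia no-SPP1 replicate 3 reaches 1130 CPM of NFKBIA.

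The mouse promoters of Nfkbia, Tnfaip3 and Rel, the members called in both co-culture modes against medium in every alternative, are shown here. Nfkbia and Tnfaip3 are textbook targets of the factors that the family encodes. Sequences were taken from RefSeq (GRCm38.p6), a mouse build that differs from the build of the counts, and matched by symbol. Of the 10 members, 7 had an entry, while Nfkbiz, Relb and Nfkb1 had none. The 250 bases before each start were searched on both strands for the kappaB consensus, a motif of 10 bases. These 7 members had 10 entries, since a gene can have several starts. The consensus occurred in 7 of the 10 entries (5 members, Nfkb2, Nfkbia, Nfkbie, Rel and Tnfaip3) and in 7.25% of all 32851 entries of that length. In the sequences below, written 5′ to 3′ on the strand of the gene, capitals mark bases in a consensus match on either strand.
Nfkbia, chr12:55492648-55492897, minus strand: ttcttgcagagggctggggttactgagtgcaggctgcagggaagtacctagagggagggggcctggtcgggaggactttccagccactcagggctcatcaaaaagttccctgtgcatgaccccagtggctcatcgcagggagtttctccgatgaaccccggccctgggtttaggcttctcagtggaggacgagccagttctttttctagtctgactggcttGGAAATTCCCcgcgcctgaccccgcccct
Tnfaip3, chr10:19015411-19015660, minus strand: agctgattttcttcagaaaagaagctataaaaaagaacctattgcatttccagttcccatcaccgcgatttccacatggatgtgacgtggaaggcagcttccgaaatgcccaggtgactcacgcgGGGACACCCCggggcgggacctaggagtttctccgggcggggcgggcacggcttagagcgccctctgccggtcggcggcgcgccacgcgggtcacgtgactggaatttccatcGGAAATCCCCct
Rel, chr11:23770970-23771219, minus strand: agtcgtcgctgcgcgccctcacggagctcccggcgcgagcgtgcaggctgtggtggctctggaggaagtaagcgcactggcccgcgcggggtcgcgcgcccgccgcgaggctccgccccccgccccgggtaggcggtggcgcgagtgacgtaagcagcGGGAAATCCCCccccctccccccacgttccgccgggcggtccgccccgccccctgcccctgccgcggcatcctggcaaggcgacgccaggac

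The Nfkbia match, GGAAATTCCC, begins 29 bases before the start. Tnfaip3 holds GGGACACCCC at 125 bases and GGAAATCCCC at 12 bases, and a second Tnfaip3 entry holds none. The capitals in Rel are a pair of overlapping matches that begin 92 and 91 bases before the start. These are matches of letters, and binding was not measured.

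NFKBIA, the gene of the inhibitor that binds and retains NF-kappaB dimers, was higher in the cells and washed libraries than in the medium libraries. It was at 583 CPM in naive replicate 1 and 204 CPM in naive replicate 2. Medium libraries ran from 216 CPM to 1130 CPM with a median of 292 CPM, and their highest values were the 475 CPM and 1130 CPM of the 2 medium libraries apart. The other 9 medium libraries ran from 216 to 360 CPM, below every cells and washed library.

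Cells libraries ran from 437 to 1039 CPM of NFKBIA (median 668 CPM) and washed libraries from 570 to 869 CPM (median 746 CPM). The log2 fold change was 0.84 ± 0.18 (SE) for cells against medium (adjusted p = 0.000246) and 0.96 ± 0.18 for washed against medium (adjusted p = 3.03e-05). Without the 2 medium libraries apart these changes were 1.26 and 1.36. Against naive, the washed libraries were higher by a log2 fold change of 0.89 ± 0.35 (adjusted p = 0.0449), and the cells libraries differed by 0.77 (adjusted p = 0.0923). The naive comparison of NFKBIA turned on which of the 2 naive libraries was used. Without naive replicate 2 the washed value was 0.35 (adjusted p = 0.659), and without naive replicate 1 it was 1.94 (adjusted p = 0.00424). Leaving out any of 8 washed libraries (all but washed hypoxia no-SPP1 replicate 2, washed hypoxia SPP1 replicate 2, washed normoxia SPP1 replicate 2 and washed normoxia no-SPP1 replicate 3) also ended this call, with adjusted p up to 0.0689.

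NFKBIZ, which encodes a nuclear member of the inhibitor family that takes part in secondary NF-kappaB responses, was called in 1 comparison of modes. It was at 22.3 and 12.9 CPM in the naive libraries, 3.45 to 143 CPM in medium (median 7.29), 9.85 to 95.2 CPM in cells (median 18.7) and 11.5 to 115 CPM in washed (median 34.8). The log2 fold change for washed against medium was 1.60 ± 0.40 (adjusted p = 0.000872). Cells against medium gave 0.67 (adjusted p = 0.176), but 1.77 (adjusted p = 0.000553) without the 2 medium libraries apart and 1.53 without medium normoxia no-SPP1 replicate 3 alone. It was 0.20 (adjusted p = 0.695) without cells hypoxia no-SPP1 replicate 2, so single libraries moved it both ways. Washed against medium gave 2.68 without the 2 medium libraries apart. Washed against cells gave 0.93 (adjusted p = 0.106), with 1.42 (adjusted p = 0.00648) without cells hypoxia no-SPP1 replicate 2 and 0.66 (adjusted p = 0.295) without washed hypoxia SPP1 replicate 1.

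NFKBIZ was high in the 4 co-culture libraries apart, which held 55.9 to 115 CPM from 34 to 82 counts. The other 20 co-culture libraries held 9.85 to 60.0 CPM, with a median of 21.2 CPM. Only washed hypoxia no-SPP1 replicate 2, at 60.0 CPM, reached the range of the 4. Without these 4 libraries NFKBIZ stayed higher in washed than in medium, by 1.13 (adjusted p = 0.00777). The 4 were also the libraries that set the second principal component of all IDs, and whether that axis accounts for NFKBIZ was not tested.

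TNFAIP3, which removes activating ubiquitin chains from signalling proteins upstream of NF-kappaB, was low in medium and higher in all other conditions. The naive libraries held 47.4 and 27.1 CPM. Medium ran from 1.78 to 101 CPM with a median of 7.67 CPM, and without the 2 medium libraries apart its highest library was at 12.3 CPM. Cells ran from 31.3 to 92.9 CPM (median 60.5) and washed from 51.1 to 112 CPM (median 78.6). Apart from medium normoxia no-SPP1 replicate 3 at 101 CPM, every medium library was below every library of the other modes, naive included.

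For TNFAIP3, cells against medium gave a log2 fold change of 2.57 ± 0.29 (5.96-fold, adjusted p = 7.50e-09) and washed against medium 2.89 ± 0.29 (7.40-fold, adjusted p = 3.55e-10). Medium was lower than naive by a log2 fold change of −1.83 ± 0.47 (adjusted p = 0.00318), which became −2.58 without the 2 medium libraries apart. Without naive replicate 1 it was −1.28 (adjusted p = 0.172), so the call rests on that library. Against naive, cells differed by 0.74 (adjusted p = 0.276) and washed by 1.05 (adjusted p = 0.0967). The median over all tested IDs shifted by 0.11 for medium against naive, in the direction opposite to TNFAIP3.

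REL, the c-Rel subunit, was the member with a call against both naive and medium in each co-culture mode. It was at 31.9 and 27.1 CPM in the naive libraries and at 8.02 to 104 CPM in medium (median 19.2). Cells held 64.5 to 223 CPM (median 146) and washed 101 to 312 CPM (median 150). All 24 co-culture libraries exceeded both naive libraries, and they exceeded every medium library but medium normoxia no-SPP1 replicate 3 at 104 CPM.

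Against naive, the log2 fold change of REL was 2.10 ± 0.43 in cells (4.29-fold, adjusted p = 0.000303) and 2.43 ± 0.44 in washed (5.39-fold, adjusted p = 4.67e-05). Against medium it was 2.24 ± 0.21 in cells (adjusted p = 1.32e-10) and 2.57 ± 0.21 in washed (adjusted p = 3.66e-12). Washed against cells gave 0.33 (adjusted p = 0.280). The 4 calls of REL held in every alternative run, leaving out each library included, with adjusted p at most 0.0304.

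NFKB2 and NFKB1 encode the precursor subunits. NFKB2 was at 21.3 and 29.7 CPM in naive, 15.7 to 70.6 CPM in medium (median 33.9), 25.0 to 58.9 CPM in cells (median 53.8) and 3.29 to 70.7 CPM in washed (median 38.9). Its log2 fold change for cells against medium was 0.41 (adjusted p = 0.203), and it had no call in any of the 12 comparisons. The lowest values of NFKB2 were in washed hypoxia SPP1 replicate 1 (3 counts) and washed normoxia SPP1 replicate 1 (2 counts), both among the libraries apart. Every other library held at least 19 counts. Without all 6 libraries apart, NFKB2 passed the test in cells against medium (0.67, adjusted p = 0.00633) and in washed against medium (0.64, adjusted p = 0.0147). Without medium normoxia no-SPP1 replicate 2, cells against medium was 0.27.

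NFKB1, with few counts, ran from 6.77 to 14.2 CPM in naive, 2.75 to 11.1 CPM in medium (median 4.45), 4.06 to 16.3 CPM in cells (median 9.88) and 3.69 to 14.5 CPM in washed (median 7.14). Cells against medium gave 0.76 ± 0.30 (adjusted p = 0.0322), and the ranges overlapped widely. The call was lost in 13 of 32 alternatives, with adjusted p = 0.193 when low counts were not filtered. Among single libraries it was lost without cells hypoxia SPP1 replicate 1, cells hypoxia no-SPP1 replicate 2, cells normoxia no-SPP1 replicate 3, cells normoxia SPP1 replicate 3, medium hypoxia SPP1 replicate 2, medium normoxia no-SPP1 replicate 2, medium normoxia SPP1 replicate 2 or medium hypoxia no-SPP1 replicate 3. Washed against medium gave 0.55 (adjusted p = 0.118).

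Counted over the members, 4 of the 6 tested passed in cells against medium, where 48.7% of all IDs did, and 4 of 6 in washed against medium, where 58.7% did. The counts of 6 genes were not tested against that background. All 8 calls were higher, whereas calls over all IDs split into 23.4% higher and 25.3% lower in cells, and into 28.6% higher and 30.2% lower in washed. The median log2 fold change of the 6 members was 0.80 in cells and 1.28 in washed, beside −0.02 and −0.03 over all tested IDs. Against naive, 1 of 6 passed in medium (lower, as were 15.3% of IDs of the 32.4% called), 1 of 6 in cells (higher, as were 13.9% of the 27.3% called) and 2 of 6 in washed (higher, as were 17.5% of the 34.5% called). Washed against cells called 0 members by edgeR and 0 by DESeq2, against 7.2% of IDs in edgeR (4.16% higher and 3.04% lower). At an unadjusted p under 0.05 there were 1 member (NFKBIZ) and 1240 IDs. Log2 fold changes of the members there ran from −0.25 to 0.93. All comparisons against medium share the medium libraries, and those against naive share the 2 naive ones.

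**Figure D2:**
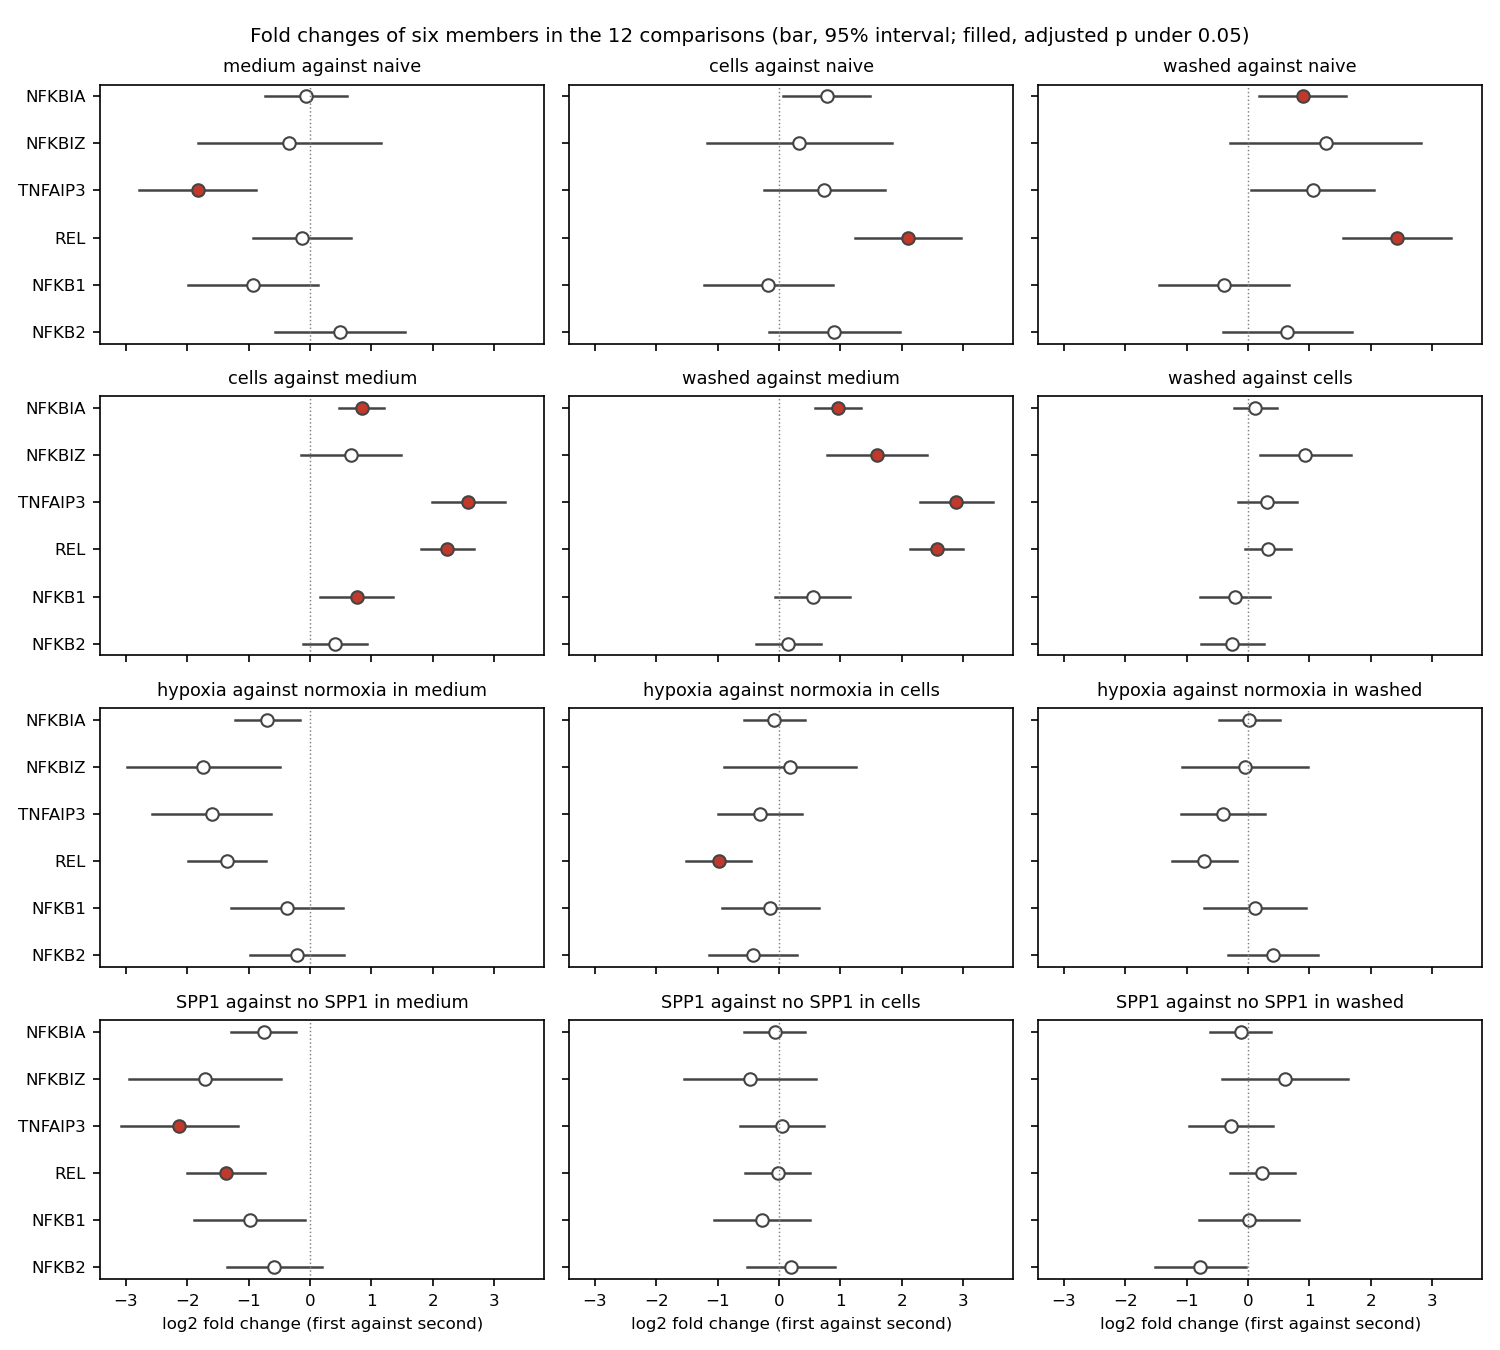
Log2 fold changes of 6 members with 95% intervals in 12 comparisons, filled where the adjusted p was under 0.05. REL and TNFAIP3 lie between 2.24 and 2.89 in cells and washed against medium. Most intervals of the oxygen and SPP1 comparisons in cells and washed cross 0. In medium those of NFKBIA, NFKBIZ, TNFAIP3 and REL lie below 0 in both, with calls only for TNFAIP3 and REL with SPP1.

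Keeping the RAW264.7 cells in hypoxia before co-culture went with lower REL in the cells mode. The 6 hypoxia libraries held 64.5 to 138 CPM (median 87.0) and the 6 normoxia libraries 153 to 223 CPM (median 168), with no overlap. The log2 fold change was −0.98 ± 0.26 (adjusted p = 0.0308), against 3.62% of IDs called, 2.72% higher and 0.905% lower. Without SPP1 the hypoxia libraries held 138, 81.3 and 64.5 CPM and the normoxia ones 162, 159 and 204 CPM. With SPP1 they held 68.0, 92.8 and 101 CPM against 175, 153 and 223 CPM, so that the ranges were apart at both SPP1 levels.

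The fold change of REL in cells stayed between −1.17 and −0.87 in all 21 alternatives, but its adjusted p passed 0.05 when any 1 of 8 libraries was left out (0.0926 at most). These were cells hypoxia SPP1 replicates 1 and 3, cells hypoxia no-SPP1 replicates 2 and 3, cells normoxia SPP1 replicates 1 and 3, and cells normoxia no-SPP1 replicates 2 and 3. The other 5 tested members had log2 fold changes of −0.42 to 0.18, with intervals that together ran from −1.14 to 1.26.

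In washed, REL was at 101 to 167 CPM in hypoxia (median 119) and 133 to 312 CPM in normoxia (median 173), and the ranges overlapped. The log2 fold change was −0.71 (adjusted p = 0.446). In that comparison 0 of 6 members were called by edgeR or DESeq2, against 0.0385% of IDs. REL alone (1 member) and 426 IDs had an unadjusted p under 0.05. Without the 4 co-culture libraries apart, of which washed normoxia SPP1 replicates 1 and 2 held 312 and 310 CPM, REL gave −0.25.

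In medium, REL was at 8.02 to 47.4 CPM in hypoxia and 19.2 to 104 CPM in normoxia. The log2 fold change was −1.35 (adjusted p = 0.0874), and 0 of 6 members passed in edgeR, against 0.077% of IDs. There 4 members (REL, TNFAIP3, NFKBIZ and NFKBIA) and 382 IDs had an unadjusted p under 0.05, and DESeq2 called 1 member, REL. REL also passed without medium normoxia no-SPP1 replicate 2 (−1.64) or medium hypoxia no-SPP1 replicate 1 (−1.66), and was −0.79 without medium normoxia no-SPP1 replicate 3. TNFAIP3 gave −1.60 (adjusted p = 0.331), and −0.61 without the 2 medium libraries apart. The hypoxia change of REL differed by 0.37 between cells and medium (adjusted p = 0.867), so a difference between modes was not shown. In that test 0 of 6 members passed in edgeR or DESeq2, against 0.481% of IDs. At an unadjusted p under 0.05 it had 2 members (NFKBIZ and TNFAIP3) and 436 IDs. The test between washed and cells also called 0 of 6 in both tools, against 0.173% of IDs. It had 0 members and 367 IDs at an unadjusted p under 0.05.

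SPP1 given to the RAW264.7 cells went with lower TNFAIP3 and REL in the medium mode, in which 13 IDs (0.25%) were called, all of them lower. Added SPP1 could still be present in that medium, and whether it acted on the splenocytes themselves was not tested. TNFAIP3 was at 3.45, 8.08, 9.28, 14.5 and 101 CPM in the 5 libraries without SPP1 and at 1.78 to 12.3 CPM (median 3.34) in the 6 with SPP1. REL was at 17.1, 18.1, 31.8, 47.4 and 104 CPM without SPP1 and at 8.02 to 37.9 CPM (median 16.8) with it. Both pairs of ranges overlapped. The log2 fold changes were −2.14 ± 0.47 for TNFAIP3 (adjusted p = 0.0300) and −1.37 ± 0.31 for REL (adjusted p = 0.0425).

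The highest values without SPP1 were those of the 2 medium libraries apart. Without both, TNFAIP3 gave −0.53 and REL −0.48 (adjusted p = 0.978 for each). Without medium normoxia no-SPP1 replicate 3 alone the values were −0.86 and −0.83 (adjusted p = 0.831 each), and without medium hypoxia no-SPP1 replicate 1 alone −1.81 (adjusted p = 0.478) and −1.02 (adjusted p = 0.626). Both calls were also lost without medium normoxia SPP1 replicate 1 or 3, or medium hypoxia SPP1 replicate 2 or 3, and when only the groups compared entered the fit. NFKBIA (−0.76, adjusted p = 0.346) and NFKBIZ (−1.72, adjusted p = 0.361) did not pass, and without the 2 libraries apart their values were 0.12 and 0.53. NFKB1, poorly captured, did not pass either (adjusted p = 0.513). At an unadjusted p under 0.05 there were 5 members (NFKBIA, NFKBIZ, TNFAIP3, REL and NFKB1) and 478 IDs, and DESeq2 called 2 members. The plot of naive and medium libraries shows the points of NFKBIA, NFKBIZ, TNFAIP3 and REL.

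**Figure D3:**
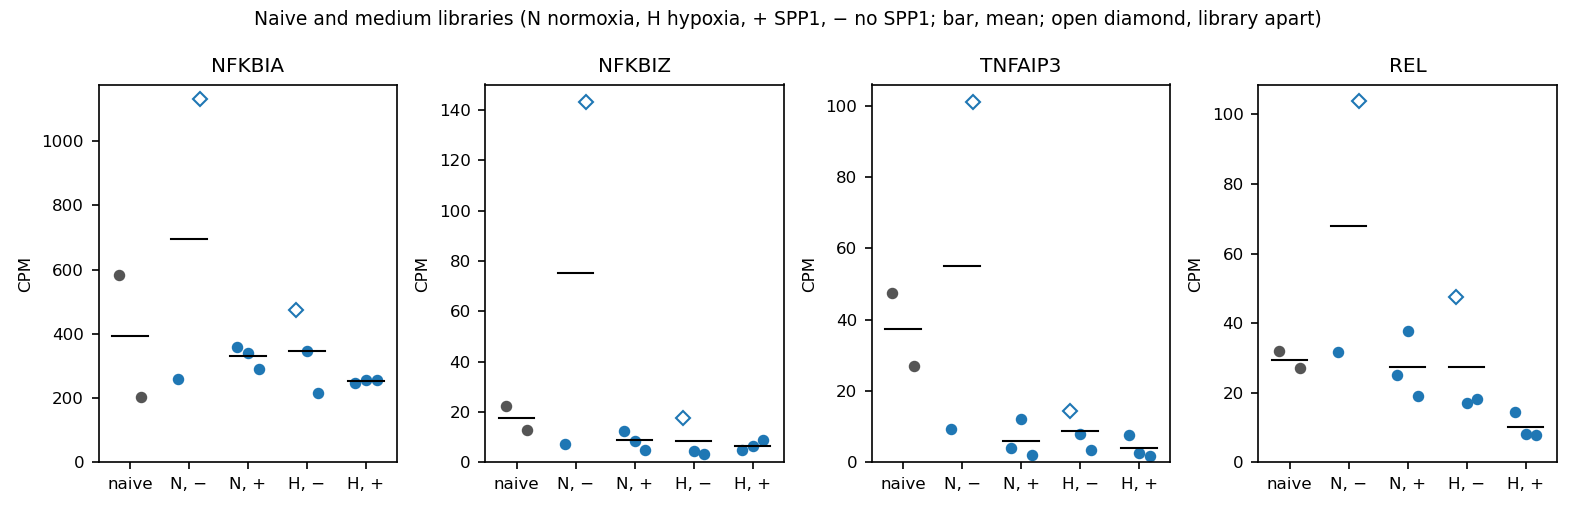
CPM of 4 members in the 2 naive and 11 medium libraries, with bars at group means and open diamonds for the 2 medium libraries apart. Medium normoxia no-SPP1 replicate 3 is the highest point for all 4 members, at 1130 CPM of NFKBIA and 101 CPM of TNFAIP3.

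With SPP1 in cells, 0 of 6 members passed in edgeR or DESeq2, and 0 of all IDs did in edgeR. At an unadjusted p under 0.05 there were 0 members and 87 IDs. The log2 fold changes of the members ran from −0.47 to 0.20, and their intervals together from −1.54 to 0.91. REL was at 68.0 to 223 CPM with SPP1 (median 127) and 64.5 to 204 CPM without (median 148). In washed, 0 of 6 members passed in either tool, against 0.0193% of IDs. Only NFKB2 had an unadjusted p under 0.05, and it gave −0.78 (adjusted p = 0.462). The 2 libraries with 3 and 2 counts of NFKB2 were on the SPP1 side. The SPP1 change differed between cells and medium by 2.19 for TNFAIP3 (adjusted p = 0.402) and 1.35 for REL (adjusted p = 0.536). In that test 0 members and 0 IDs passed, with 2 members (TNFAIP3 and REL) and 255 IDs reaching an unadjusted p under 0.05. For the test of washed against cells 0 members and 0 IDs passed, with 0 members and 391 IDs at an unadjusted p under 0.05. DESeq2 called 0 members in either test.

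Across the 13 groups, the mean of NFKBIA was highest in washed normoxia no-SPP1 (776 ± 108 CPM, SD, n = 3) and lowest in medium hypoxia SPP1 (254 ± 6.04 CPM, SD, n = 3). TNFAIP3 ran from 99.1 ± 12.2 CPM to 4.07 ± 3.16 CPM between the same groups (SD, n = 3). REL ran from 252 ± 102 CPM in washed normoxia SPP1 to 10.2 ± 3.62 CPM in medium hypoxia SPP1 (SD, n = 3). NFKBIZ was highest in medium normoxia no-SPP1 (75.2 ± 96.1 CPM, SD, n = 2) and lowest in medium hypoxia SPP1 (6.71 ± 2.07 CPM, SD, n = 3). Medium normoxia no-SPP1 was at rank 6 of 13 for NFKBIA (695 ± 615 CPM, SD, n = 2), 8 for TNFAIP3 and 9 for REL. Ranges of neighbours in the order of each member overlapped in 11 of 12 pairs for NFKBIA, TNFAIP3 and REL. They overlapped in 12 of 12 for NFKBIZ, NFKB1 and NFKB2. The pairs that did not overlap were naive and medium hypoxia no-SPP1 for TNFAIP3, and medium normoxia SPP1 and medium hypoxia SPP1 for NFKBIA and REL.

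Whether NFKBIA moved with the other members from library to library was examined within each mode, in 12 relations on the log2 CPM scale with permutation tests. Each mode pooled its oxygen and SPP1 groups, and libraries were permuted across them. These relations therefore mix differences between group means with variation between replicates. In medium (n = 11), Pearson's r of NFKBIA was 0.947 with NFKBIZ (permutation p = 0.000700, adjusted 0.00420), 0.882 with TNFAIP3 (permutation p = 0.00426, adjusted 0.0128) and 0.828 with REL (permutation p = 0.00186, adjusted 0.00744). Spearman's rho was 0.718 (permutation p = 0.0165, adjusted 0.0659), 0.636 (permutation p = 0.0412, adjusted 0.0990) and 0.727 (permutation p = 0.0138, adjusted 0.0659). The 2 libraries farthest from the median of NFKBIA were the 2 medium libraries apart, and without them r fell to 0.523, 0.332 and 0.457 (adjusted permutation p = 0.557 each). The relations in medium rest on those 2 libraries.

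In cells (n = 12), NFKBIA went with NFKBIZ at r = 0.822 (permutation p = 0.000510, adjusted 0.00420) and rho = 0.818 (permutation p = 0.00164, adjusted 0.0197). Without cells hypoxia no-SPP1 replicates 1 and 2, the 2 libraries farthest out, r was 0.685 (permutation p = 0.0290, adjusted 0.348). In washed (n = 12) none of the 4 relations passed. There r was −0.533 with NFKBIZ (adjusted permutation p = 0.132) and −0.600 with REL (adjusted permutation p = 0.0937). The latter became 0.161 without washed normoxia SPP1 replicates 1 and 2. NFKBIA and NFKB2 in washed had r = 0.523 (adjusted permutation p = 0.132), and with library totals in place of TMM scaling r = 0.686 (adjusted permutation p = 0.0205), which passed.

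**Figure D4:**
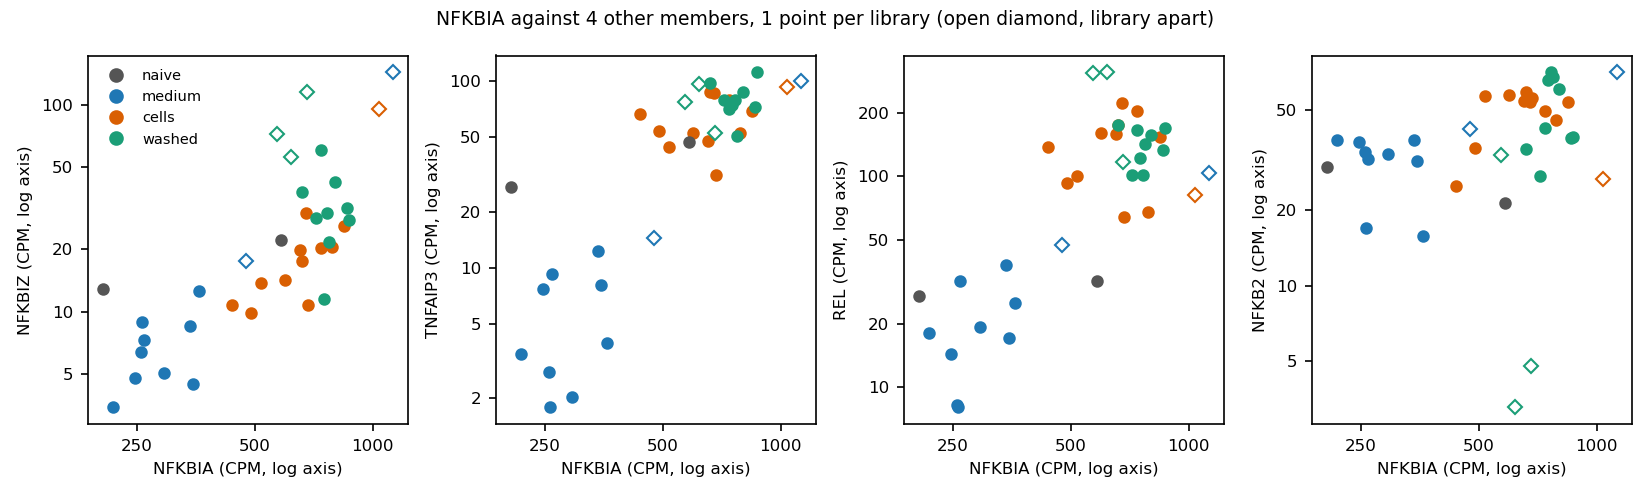
NFKBIA against NFKBIZ, TNFAIP3, REL and NFKB2, in CPM on log axes, with 1 point per library coloured by mode and open diamonds for the 6 libraries apart. The 2 medium libraries apart lie at 475 and 1130 CPM of NFKBIA, away from the 216 to 360 CPM of the other 9.

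Over the 13 group means of log2 CPM, the IDs with the pattern most like NFKBIA among 5192 others were ENSG00000205189.12 (r = 0.978) and ENSG00000234450.1 (r = 0.969). REL was at rank 10 (r = 0.955), TNFAIP3 was at rank 48 (r = 0.928) and NFKBIZ at rank 308 (r = 0.830). NFKB1 (r = 0.541) was at rank 1185 and NFKB2 (r = 0.348) at rank 1716. These values describe 13 means that share libraries and depth, and carry no test.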

How the data were processed

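Libraries were made by the authors with a QuantSeq 3′ mRNA kit and sequenced as single reads. They were trimmed by the authors with bbduk. STAR 2.7.10b served for alignment to GRCh38, and featureCounts (Rsubread 2.0.3) for counting per gene. GRCh38 is a human genome and the samples are mouse, so transcripts whose 3′ ends differ between species can be missed or assigned to a paralog. The authors deposited raw counts, all whole numbers. The annotation release, the treatment of multiply aligned reads and the use of the unique molecular identifiers are not given in the sources used here, and counts may hold PCR duplicates. The labels set a minimum RNA integrity and quote a range that reaches below it.

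Groups came from the treatment label and replicate numbers from the titles. The deposited counts were fitted with edgeR 4.0.16 in R 4.3.3 (TMM scaling, filterByExpr with a minimum count of 10, quasi-likelihood test, 1 mean for each of 13 groups, no replicate block). P-values were adjusted by Benjamini-Hochberg over 5193 IDs, and an adjusted p under 0.05 was called. Modes were averaged over their groups, oxygen over SPP1 and SPP1 over oxygen. CPM are TMM-scaled. Fold changes carry standard errors or 95% intervals from the fit. Relations used SciPy 1.17.1 with 100000 two-sided permutations. Alternatives were RLE scaling, library totals, no filter, DESeq2 1.42.0, a replicate block, only the groups compared, each library left out, and the libraries apart left out (all 6 together was chosen after seeing the data). The fit was tested on simulated data.

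The members, lists and alternatives were chosen with earlier results of these data known. All 10 members are named, those with a mean under 10 counts are stated as poorly captured, and at most 2 IDs are named for likeness to NFKBIA. No table used here pairs the human IDs with symbols, so the planned lists of other pathway genes and of cell type markers were not run. Replicates of a group differed by more than counting noise in all 35 pairs (chi-square per degree of freedom 2.78 to 42.9), so none was merged.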

Additional observations from a re-analysis of the deposited data

Results flagged for a closer look

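The lowest and the highest library of each arm were examined. A library was picked out where its gap to the nearest other, divided by the range of the arm, exceeded Dixon's 95% critical value. This held for 11 of 72 arms tested (15.3%), and chance alone gives about 1 in 20 in normally distributed values. CPM were not logged here and each arm pools groups, so that rate is only a rough mark. Arms overlap, since each library stands in an oxygen arm and in an SPP1 arm.

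Medium normoxia no-SPP1 replicate 3 was the highest of 5 libraries in 8 of these arms. It held 1130 CPM of NFKBIA, where the other normoxia medium libraries held 261 to 360 CPM. It held 143 CPM of NFKBIZ (others 5.06 to 12.6), 104 CPM of REL (others 19.2 to 37.9) and 101 CPM of TNFAIP3 (others 2.02 to 12.3). Among the medium libraries without SPP1 it held 70.6 CPM of NFKB2 (others 31.4 to 42.1). Medium hypoxia no-SPP1 replicate 1 held 47.4 CPM of REL, above the 8.02 to 18.1 CPM of the other 5 hypoxia medium libraries. Cells hypoxia no-SPP1 replicate 2 held 95.2 CPM of NFKBIZ, above the 9.85 to 20.6 CPM of the other 5 hypoxia cells libraries.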

How the results depend on the processing

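The calls of REL, TNFAIP3 and NFKBIA in cells and washed against medium, of NFKBIZ in washed against medium and of REL against naive held in every alternative run. The number of members called moved as follows, here and with single libraries left out. The share of all IDs called under each of these settings is not given beside it. For any difference among the 13 groups (main 4) it was 5 without the filter or without all 6 libraries apart. For cells against medium (main 4) it was 3 with library totals, without the filter, with DESeq2 or without the 4 co-culture libraries apart, and 5 without the 2 medium ones or without all 6. For washed against medium (main 4) it was 5 without all 6. It was 2 for medium against naive without all 6 libraries apart (main 1). For cells against naive (main 1) it was 2 without the filter, without the 4 co-culture libraries apart and without the 2 medium ones, and 3 without all 6. For washed against naive (main 2) it was 1 with RLE scaling or library totals, 3 with only the groups compared or without the 2, and 4 without all 6. For washed against cells (main 0) it was 1 without the filter or without all 6. For hypoxia in medium (main 0) it was 2 without the filter and 1 with DESeq2 or without the 4. For SPP1 in medium (main 2) it was 3 without the filter, 1 with RLE scaling and 0 with only the groups compared, without the 2 or without all 6. For the SPP1 effect in cells against medium (main 0) it was 1 without the filter. Of the 12 relations of NFKBIA, 4 passed, 5 did with library totals (NFKB2 in washed was added), and 0 did without the 2 libraries farthest from its median.

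With each library left out in turn, the count ran from 0 to 1 for medium against naive (0 without naive replicate 1), 1 to 2 for cells against naive, 1 to 2 for washed against naive, 3 to 5 for cells against medium, 0 to 1 for washed against cells, 0 to 3 for hypoxia in medium, 0 to 1 for hypoxia in cells, 0 to 4 for SPP1 in medium and 0 to 1 for the SPP1 effect in cells against medium. The 3 and the 4 came without medium normoxia no-SPP1 replicate 2, which leaves replicate 3 alone in its group, assumed to vary like the others. Among the fold changes printed, the direction turned in 5 cases, none of them called. For SPP1 in medium, NFKBIA gave 0.12 and NFKBIZ 0.53 without the 2 medium libraries apart, and 0.10 and 0.51 without all 6. The hypoxia effect of REL in cells against medium ran from −0.18 (without medium normoxia no-SPP1 replicate 3) to 0.68 with single libraries left out. Among the relations, 3 that had not passed turned sign without the 2 farthest libraries: REL in washed (−0.600 to 0.161), NFKB2 in medium (0.558 to −0.320) and REL in cells (−0.119 to 0.151). The cause was not tested.

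The replicate block left every count of called members as it was, with 4 members in cells against medium and 2 for SPP1 in medium. Libraries with the same number shared little (median r of deviations 0.00436 over 187 pairs, 35 of them over 0.1). Pairs with other numbers had a median of 0.000663 over 374 pairs, 62 of them over 0.1. Of 35 libraries, 16 were best with their own number. The check showed no clear pairing by number and cannot exclude it. With library totals, the median of all IDs fell by 0.31 in washed against medium and by 0.18 in cells against medium, where 4 and 3 members were still called. Low counts limit NFKB1, NFKBIE, RELB, RELA and BCL3.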
